A study of Mus musculus with 42 samples.

Results

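A set of 10 genes that mark the endothelium, the cell layer that lines blood vessels, was followed through a culture of mouse embryonic stem cells directed towards osteoblasts. They are the vascular endothelial growth factor receptor genes Kdr and Flt1, the angiopoietin receptor gene Tek and its relative Tie1, the apelin receptor gene Aplnr, the TGF-beta co-receptor gene Eng, the junction genes Cdh5, Pecam1 and Esam, and the surface sialomucin gene Cd34. The members were all probe sets on either chip whose only gene symbol in the platform annotation was one of these 10, which gave 16 probe sets, 15 of 22626 on the 430A chip and 1 of 22511 on the 430B chip. They are 10 of 18193 genes with a probe set of their own on either chip. The genes were chosen by name, with earlier results of these data known.

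The cells were D3, a line of mouse embryonic stem cells from the blastocyst. RNA came from 7 days of culture, day 4, day 5, day 6, day 8, day 16, day 25 and day 30, with 3 replicates a day, and each of the 21 RNA samples was measured on both chip types. The labels give vitamin D3, beta-glycerophosphate and ascorbic acid in the medium of every sample and name VD3 in the titles only on day 6 and later, and that label cannot be told apart from the day. No culture without the directing medium was analysed here, and nothing in the labels tells if a day's replicates were separate cultures, so the p-values below measure the spread between these samples. The labels describe the cells as a pure clone, with the contaminating cell type undetermined.

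In the embryo, endothelial and blood cells arise from mesoderm that carries the receptor encoded by Kdr. VEGF-A binds the Kdr and Flt1 products, of which the first carries most of the growth signal and the second binds the ligand more tightly and can act as a decoy. Angiopoietins act on the Tek product, whereas the products of Cdh5, Pecam1 and Esam hold endothelial cells to each other. Most of these genes are known from other cells too: Kdr and Aplnr mark early mesoderm, Flt1 trophoblast, Pecam1 and Cd34 blood cells and, for Pecam1, undifferentiated mouse embryonic stem cells.

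Levels are log2 of the deposited signal. Only probe sets with 3 or more of their 21 values over the 40th percentile of the array in question entered the test, and 14 of the 16 probe sets and 9 of the 10 genes did so. A gene is represented by its tested 430A probe set with the highest mean. The Tie1 probe set 1416238_at lay below the 40th percentile on all 21 arrays and below the 20th on 20 of them, with its highest value, 6.96, in replicate 1 of day 6, and it was not tested. The second Cdh5 probe set, 1422047_at, was never above the 40th percentile either. Pecam1 passed through 6 arrays of days 6, 8 and 16, and Cd34 through 12 arrays on 5 days, with none of day 4 or day 30. Tek passed through 16 arrays with none of day 4, and the leading probe set of Aplnr through 16 with none of day 30. The median log2 difference of all 10092 genes lay between -0.06 and 0.07 in the 13 comparisons of 2 days. Adjusted p-values are limma's with the Benjamini-Hochberg step over all tested probe sets of the chip, and a change is written as such where that p was under 0.05.

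A few libraries stood apart on their days. In replicate 3 of day 4 the mean of 7 pluripotency genes was 12.94, at the top of the day's range of 10.38 to 12.94, while that of 8 streak and early mesoderm genes was 8.89, at the bottom of the range of 8.89 to 11.13. In replicate 3 of day 5 the pluripotency mean was 11.77, against 8.44 and 10.38 in the other arrays of the day, and the mean of 12 blood genes was 7.98, against 10.94 and 10.30. In replicate 3 of day 6 the pluripotency mean was 10.87, the highest of the day, whose lowest was 8.44. On each of days 4, 5 and 6 the pluripotency mean was highest in replicate 3 and lowest in replicate 1. Where leaving out 1 of these 3 arrays changes a call of the 9 genes, the value without it is given. On 430A, days 4 and 5 were scanned as 1 batch, days 6, 8 and 16 as another, and days 25 and 30 in further batches, so each comparison of day 6 or later with day 4 crosses a scan batch and cannot be told apart from it, while day 16 with day 6 and day 16 with day 8 lie within a batch. Day 6 with day 5, day 25 with day 8 and day 25 with day 16 cross a scan batch too and cannot be told apart from it. The log2 ratio of the 3' to the 5' Gapdh control probe sets, a measure of RNA quality that is higher in degraded RNA, averaged 2.63 ± 0.37 on day 4, 2.73 ± 0.47 on day 8, 3.84 ± 0.38 on day 25 and 3.27 ± 0.19 on day 30 (SD, n = 3 each). Its part in the late results was not tested.

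The 9 tested genes did not move as one. Kdr and Aplnr were high through day 8 and low from day 16 on. Tek, Cdh5 and Esam had risen by day 6, after which Tek fell back by day 16 and Esam stayed high. Flt1 was highest on days 25 and 30. Of the 9 genes, 7 differed between the days in the F test over 7 days, against 37.3% of all genes by the same rule, with Pecam1 (adjusted p = 0.117) and the leading probe set of Eng (adjusted p = 0.0588) the exceptions. The second Eng probe set passed (adjusted p = 0.00382), as did the mean of both (0.00344). Its 3 arrays of day 30 lay under the chip's 20th percentile, however, and the Eng probe sets correlated at only r = 0.08. In a bulk sample, fewer cells of a type and less RNA per cell cannot be told apart, which holds for each fall and rise below.

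**Figure D1:**
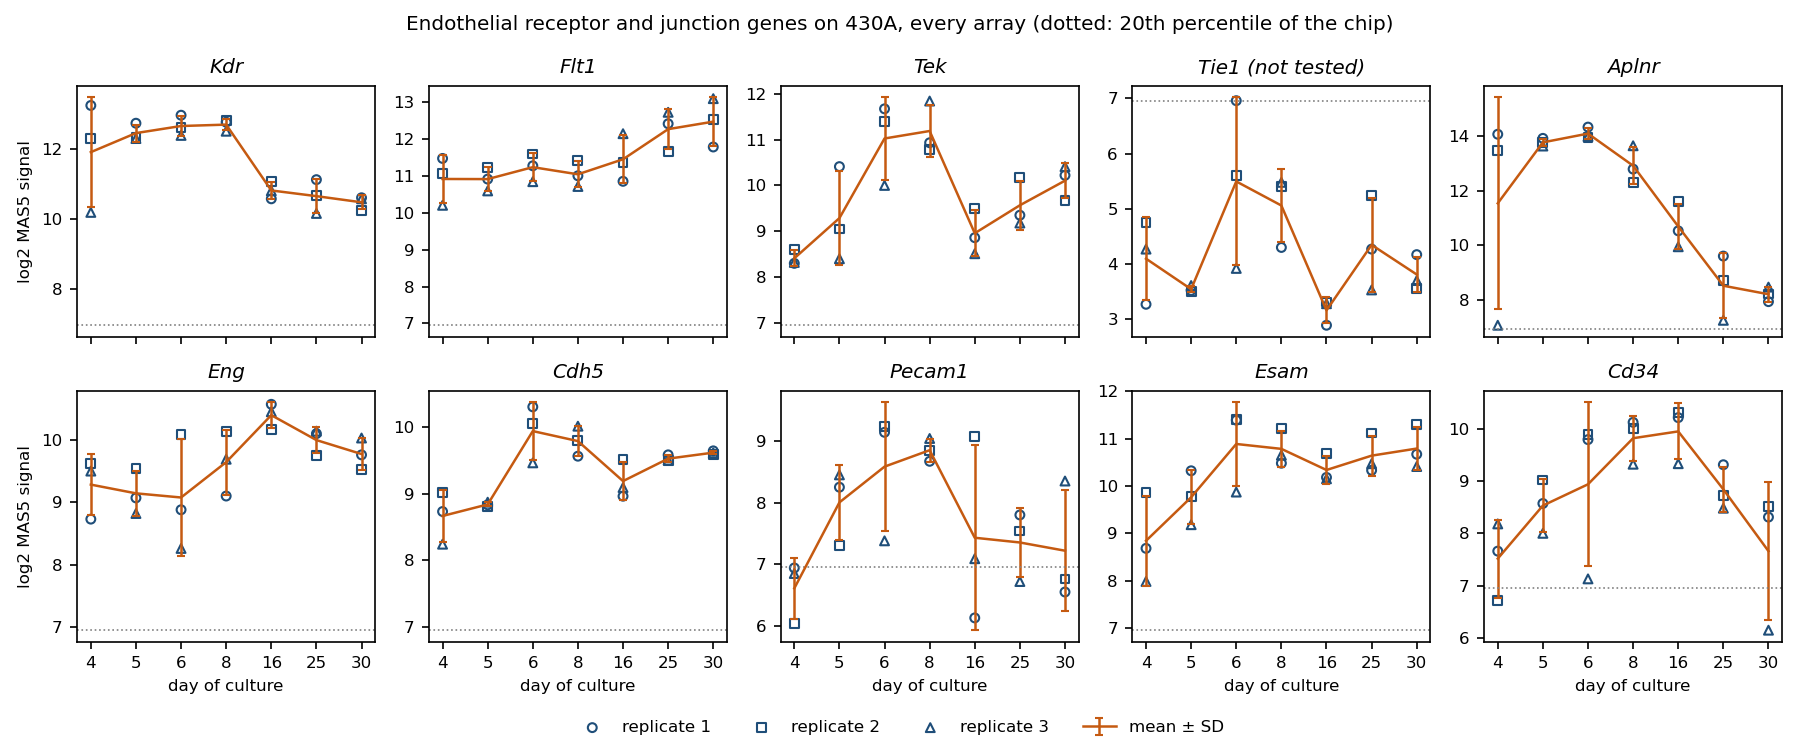
Log2 signal on every 430A array (vertical axes, each panel with its own scale) by day of culture for the 10 genes, with the day mean and SD in orange (n = 3) and the chip's 20th percentile dotted. Kdr and Aplnr drop between days 8 and 16, Tek is highest on days 6 and 8, Flt1 on days 25 and 30, and Tie1 lies under the dotted line on all arrays but replicate 1 of day 6, which is on it.

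The starts of Kdr, Flt1 and Tek are shown because these 3 receptor genes took 3 different courses. Each sequence is the 150 bases before the RefSeq start (assembly GRCm38.p6), 5' to 3' on the gene's strand: Kdr chr5:75978456-75978605 on the minus strand, Flt1 chr5:147726012-147726161 on the minus strand and Tek chr4:94739139-94739288 on the plus strand. Capitals mark GGAA or its complement TTCC, the core that ETS transcription factors recognise.
Kdr: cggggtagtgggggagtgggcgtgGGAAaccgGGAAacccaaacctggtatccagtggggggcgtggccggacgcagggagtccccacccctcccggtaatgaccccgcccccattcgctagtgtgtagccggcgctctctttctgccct
Flt1: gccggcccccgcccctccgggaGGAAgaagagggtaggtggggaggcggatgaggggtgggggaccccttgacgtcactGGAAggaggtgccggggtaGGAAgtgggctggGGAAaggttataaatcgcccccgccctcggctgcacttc
Tek: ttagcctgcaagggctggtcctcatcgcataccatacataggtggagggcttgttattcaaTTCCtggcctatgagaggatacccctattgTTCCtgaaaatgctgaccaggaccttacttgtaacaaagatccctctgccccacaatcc
The core occurred 2 times in the Kdr sequence, 4 times in that of Flt1 and 2 times in that of Tek. RefSeq promoters were matched for 6 of the 10 genes, these 3 and Tie1, Eng and Cd34, and the core stood in all 6 on either strand, as it did in 80.8% of 32851 mouse promoters of the same length, in which the median count was 2. The longer form CCGGAA (9.23% of promoters), the GATA-type TGATAA (4.45%) and the E-box CANNTG (47.7%), each read on both strands, occurred in 0 of the 6. The longer form holds the core within it. These matches describe the letters of the windows only.

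Kdr, the main signalling receptor for VEGF-A, had levels of 13.26, 12.31 and 10.19 on day 4, 12.75, 12.34 and 12.31 on day 5, 12.98, 12.63 and 12.40 on day 6 and 12.78, 12.83 and 12.52 on day 8. The levels were 10.58, 11.07 and 10.81 on day 16, 11.13, 10.68 and 10.16 on day 25 and 10.61, 10.25 and 10.58 on day 30. All 9 arrays of the last 3 days lay below all 9 arrays of days 5, 6 and 8, and of the early arrays only replicate 3 of day 4 fell into the late range. Between day 16 and day 8, within 1 scan batch, Kdr fell by 1.89 (SE 0.46, 3.7-fold, adjusted p = 0.0271). That call was lost without any 1 of the 6 arrays of those days, with an adjusted p of up to 0.128 and a difference between -2.01 and -1.77. Against day 6 the fall by day 16 was 1.85 (adjusted p = 0.0126, a call lost without replicate 1 of day 6 or of day 16, at 0.0621 at most). Across scan batches, day 25 was 2.05 below day 8 (4.16-fold, adjusted p = 0.00651, kept without each single array). Days 6 and 8 differed from day 4 by 0.75 and 0.79, not called (adjusted p = 0.359 and 0.276). Without replicate 1 of day 4 these differences were 1.41 (adjusted p = 0.0284) and 1.46 (0.0176), and without replicate 3 of day 4 -0.12 and -0.08, not called. Day 16 was 1.10 below day 4, not called (adjusted p = 0.0897), and 1.97 below it without replicate 3 of day 4 (adjusted p = 0.000126). Day 30 was 1.44 below day 4 (adjusted p = 0.0243). Without replicate 3 of day 4 that difference was -2.31 (adjusted p = 1.56e-05), without replicate 1 of day 4 it was -0.77 (0.176), and the call was also lost without replicate 2 of day 4 or of day 30. In the order of the day means, days 8, 6, 5, 4, 16, 25 and 30 from high to low, no 2 neighbours were separated by their 3 values.

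Flt1, the other VEGF-A receptor gene, did the opposite late in the course. Its leading probe set 1451756_at had levels of 11.47, 11.07 and 10.20 on day 4, 10.91, 11.23 and 10.59 on day 5, 11.27, 11.59 and 10.84 on day 6 and 11, 11.41 and 10.71 on day 8. The levels were 10.85, 11.35 and 12.14 on day 16, 12.41, 11.66 and 12.72 on day 25 and 11.78, 12.53 and 13.09 on day 30. The 6 arrays of days 25 and 30 lay above all 12 arrays of days 4 to 8, and day 16 overlapped with both. Flt1 was 2.93-fold higher on day 30 than on day 4 (1.55, SE 0.39, adjusted p = 0.00465, kept without each single array). On day 25 it was 2.55-fold higher than on day 4 (adjusted p = 0.0131, lost without replicate 3 of either day, at 0.0826 without that of day 4) and 2.33-fold higher than on day 8 (adjusted p = 0.0448, lost in 9 of the 21 fits with 1 array left out, at 0.171 at most). Within the batch of days 6, 8 and 16 its differences stayed between 0.21 and 0.40 in day 16 with day 6 and day 16 with day 8 and were not called.

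The other 3 Flt1 probe sets were read separately, as probe sets differ in the part of the transcript they cover and Flt1 also makes a shorter soluble form. The 430B probe set 1440926_at exceeded its day 4 level 3.55-fold on day 25 (adjusted p = 0.018) and 3.83-fold on day 30 (0.0102), where 6.3% and 7.6% of tested 430B probe sets were called. The 430A probe set 1419300_at exceeded it 2.39-fold on day 25 (0.00949) and 2.28-fold on day 30 (0.0123). The probe set 1454037_a_at went the same way, with 0.78 on day 25 (adjusted p = 0.16) and 1.03 on day 30 (0.0579), and was not called. Over the 21 RNA samples the 4 correlated with each other at r = 0.72 to 0.88.

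Tek, the receptor of the angiopoietins, made a peak on days 6 and 8. Its levels were 8.30, 8.61 and 8.32 on day 4, 10.41, 9.05 and 8.40 on day 5, 11.67, 11.40 and 10.00 on day 6 and 10.93, 10.79 and 11.84 on day 8. They were 8.86, 9.50 and 8.51 on day 16, 9.35, 10.17 and 9.18 on day 25 and 10.22, 9.68 and 10.41 on day 30. All 3 arrays of day 8 lay above every array of days 4, 5, 16, 25 and 30, and on day 30 all 3 again lay above those of day 4 and day 16. Tek was 6.86-fold higher on day 8 than on day 4 (2.78, SE 0.47, adjusted p = 0.000663) and 6.13-fold higher on day 6 (adjusted p = 0.00538), and both calls were kept without each single array. Within the scan batch it fell again, by 2.23 between day 16 and day 8 (4.69-fold, adjusted p = 0.00951, lost without replicate 3 of day 8 or replicate 1 of day 16, at 0.0809 at most) and by 2.07 between day 16 and day 6 (4.19-fold, adjusted p = 0.00665, kept without each array). Day 30 was 3.24-fold above day 4 (1.70, adjusted p = 0.0103, kept without each array). The day means stood in the order 8, 6, 30, 25, 5, 16 and 4, and neighbours in it overlapped. Tie1, the orphan relative of Tek, had its day means from 3.16 to 5.50, all under the chip's 20th percentile of 6.95, and gives no measured change.

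Aplnr, which encodes the receptor for apelin and Apela and marks mesoderm before vessels form, had the widest range of the 9 tested genes. Its leading probe set 1438651_a_at read 14.05, 13.46 and 7.09 on day 4, 13.90, 13.74 and 13.62 on day 5, 14.31, 13.94 and 13.97 on day 6 and 12.78, 12.30 and 13.63 on day 8. The readings were 10.53, 11.59 and 9.95 on day 16, 9.61, 8.71 and 7.27 on day 25 and 7.95, 8.23 and 8.48 on day 30. Every array of days 16, 25 and 30 lay below every array of days 5, 6 and 8, and replicate 3 of day 4 was lower than all 20 other arrays. Aplnr was 20.7-fold lower on day 25 than on day 8 (-4.37, SE 1.08, adjusted p = 0.0119, lost without replicate 3 of day 8 or of day 25, at -3.74 without that of day 25) and 10.4-fold lower on day 16 than on day 6 (-3.38, adjusted p = 0.0479). The second probe set, 1423037_at, was 7.05-fold lower on day 16 than on day 6 (-2.82, SE 0.63, adjusted p = 0.00571) and 4.7-fold lower on day 25 than on day 8 (0.0251). The leading probe set's call for day 16 with day 6 was kept in only 5 of the 21 fits with 1 array left out, with an adjusted p of 0.0518 without replicate 3 of day 5 and 0.107 without replicate 3 of day 6. Without replicate 3 of day 4, day 16 was also called lower than day 8 (-2.21, adjusted p = 0.0082, but 0.36 with it) and day 25 lower than day 16 (-2.16, 0.0303, but 0.389 with it). Day 16 differed from day 4 by -0.84 (0.63) with that array and by -3.07 (0.000326) without it. Day 6 differed from day 4 by 2.54 (0.16), by 3.8 (0.0248) without replicate 1 of day 4 and by 0.32 (0.782) without replicate 3 of day 4. Against day 4 its level was 9.95-fold lower on day 30 (-3.31, adjusted p = 0.0266) and 46.5-fold lower without replicate 3 of day 4 (-5.54, adjusted p = 4.94e-07), but at -2.06 (0.167) without replicate 1 of day 4, and its call was also lost without replicate 2 of day 4 or without each array of day 30. The 2 probe sets correlated at r = 0.96.

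Eng encodes a co-receptor for ligands of the TGF-beta and BMP family. Its leading probe set 1417271_a_at read 8.73, 9.62 and 9.50 on day 4, 9.07, 9.54 and 8.82 on day 5, 8.88, 10.09 and 8.26 on day 6 and 9.10, 10.14 and 9.69 on day 8. It read 10.57, 10.17 and 10.45 on day 16, 10.10, 9.75 and 10.14 on day 25 and 9.76, 9.53 and 10.03 on day 30. Day 16 lay above all arrays of the other days. It was 2.5-fold higher on day 16 than on day 6 (1.32, SE 0.38, adjusted p = 0.0288) and 2.17-fold higher than on day 4 (adjusted p = 0.0362). The second probe set was not called in either comparison, at 0.60 (0.506) and 1.31 (0.0508). The first call was lost without any array of day 16 or replicate 1 or 3 of day 6 (at most 0.183), and the second without any array of day 16 or replicate 1 of day 4 (at most 0.15). The second was also lost under quantile normalization (0.0612), median centring (0.0582) and no filter (0.0503), and with the replicate number of the scan record as a block both were lost (0.0617 and 0.0811). The second probe set, 1432176_a_at, was 6.63, 6.80 and 6.92 on day 30, below all its other arrays and under the chip's 20th percentile of 6.95, while the leading one on day 30 overlapped with day 4. With r = 0.08 between them over 21 arrays the 2 probe sets disagreed, so no late direction is given for Eng.

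**Figure D2:**
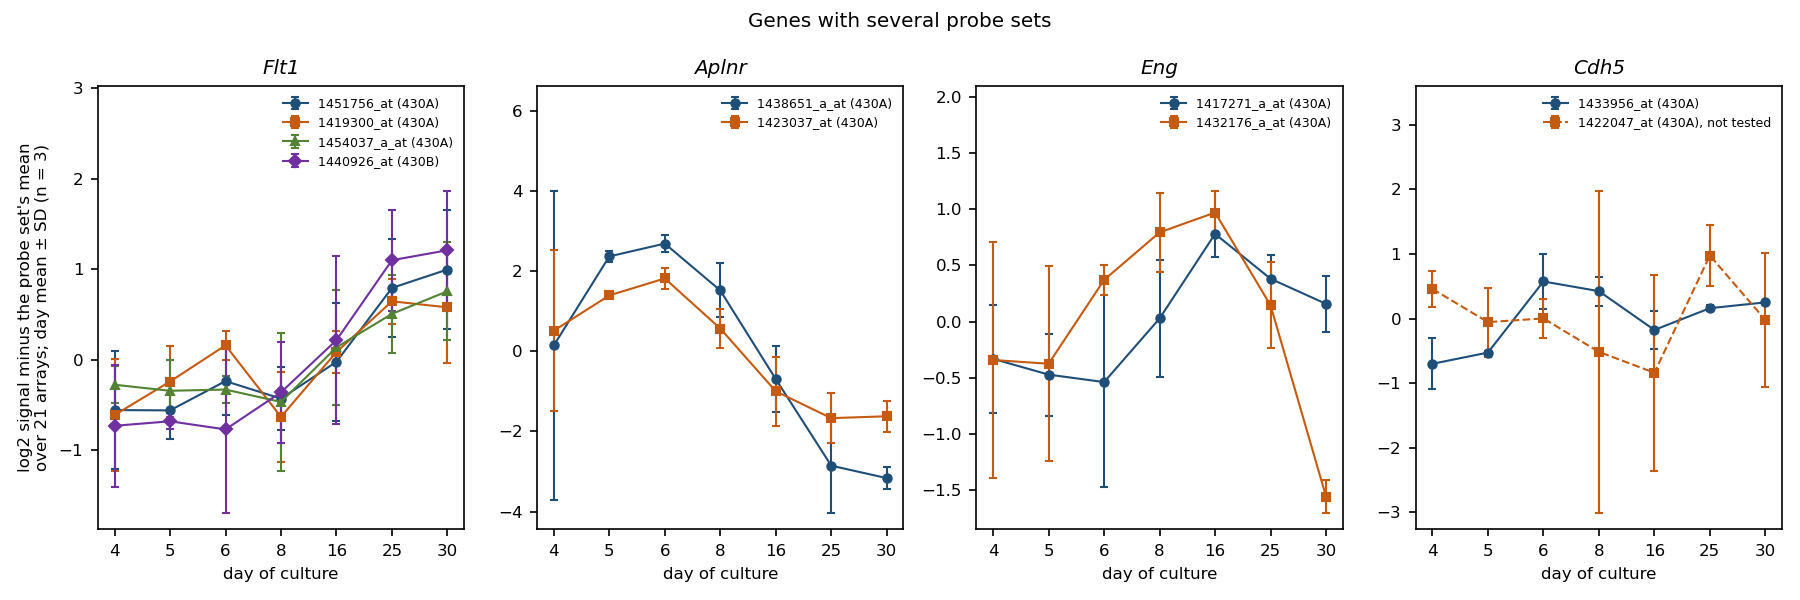
Day means with SD (n = 3) of every probe set of Flt1, Aplnr, Eng and Cdh5, each set on its own mean over 21 arrays (vertical axis, log2) against day of culture. The 4 Flt1 and the 2 Aplnr probe sets run together, whereas the Eng pair parts on days 6 and 8 and most on day 30. The untested Cdh5 probe set is dashed.

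The junction genes rose early, and Cdh5 and Esam, but not Pecam1, were called above day 4 on day 30. Cdh5 encodes VE-cadherin, the cadherin of endothelial adherens junctions. Its levels were 8.73, 9.02 and 8.24 on day 4, 8.83, 8.81 and 8.87 on day 5, 10.30, 10.05 and 9.46 on day 6 and 9.56, 9.79 and 10.01 on day 8. They were 8.96, 9.51 and 9.09 on day 16, 9.58, 9.49 and 9.50 on day 25 and 9.64, 9.59 and 9.61 on day 30. All arrays of days 6, 8, 25 and 30 lay above those of days 4 and 5, and the 3 arrays of day 30 lay within 9.59 to 9.64. Cdh5 was 2.42-fold higher on day 6 than on day 4 (1.28, SE 0.27, adjusted p = 0.00962, lost without replicate 1 or 2 of day 6, at 0.0725 at most), 2.18-fold on day 8 (0.00748, kept without each array) and 1.93-fold on day 30 (0.0119, but 0.0651 without replicate 3 of day 4). On day 16 between them it was 0.52 above day 4, not called (adjusted p = 0.171), and its values overlapped with those of day 4. On day 25 it was 1.82-fold higher than on day 4 (adjusted p = 0.0229, lost without replicate 3 of day 4 or replicate 1 of day 25, at 0.112 at most). In the order of the means, the values of day 30 and day 25 did not overlap, nor did those of day 16 and day 5. The lowest value of day 30 was 9.59 and the highest of day 25 was 9.58. The difference between day 30 and day 25 was 0.09 and not called (adjusted p = 0.999).

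Esam encodes an adhesion molecule of endothelial tight junctions and platelets. Its levels were 8.68, 9.86 and 7.98 on day 4, 10.32, 9.78 and 9.18 on day 5, 11.39, 11.40 and 9.87 on day 6 and 10.48, 11.22 and 10.65 on day 8. They were 10.18, 10.68 and 10.15 on day 16, 10.33, 11.12 and 10.47 on day 25 and 10.67, 11.29 and 10.41 on day 30. From day 6 on, each of the 15 arrays lay above the highest of day 4, if by little in replicate 3 of day 6. Against day 4 the gene was higher on all 5 later days from day 6, by 4.14-fold on day 6 (adjusted p = 0.0112), 3.86-fold on day 8 (0.00545), 2.83-fold on day 16 (0.0172), 3.48-fold on day 25 (0.00536) and 3.86-fold on day 30 (1.95, SE 0.45, 0.00256). The calls of days 8, 25 and 30 were kept without each single array. That of day 6 was lost without replicate 1 or 2 of day 6 (at most 0.0746) and that of day 16 without replicate 3 of day 4 or replicate 2 of day 16 (at most 0.107).

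Pecam1 encodes a junction protein of endothelium that leukocytes and platelets also carry. Its levels were 6.94, 6.04 and 6.85 on day 4, 8.25, 7.31 and 8.45 on day 5, 9.14, 9.23 and 7.38 on day 6 and 8.67, 8.84 and 9.04 on day 8. They were 6.13, 9.07 and 7.09 on day 16, 7.80, 7.54 and 6.72 on day 25 and 6.55, 6.76 and 8.35 on day 30. All 3 arrays of day 4 lay under the chip's 20th percentile, so a fold against them is a lower bound, taken after raising values under that percentile to it. The gene was at least 3.73-fold higher on day 8 than on day 4 (2.24, SE 0.71, adjusted p = 0.0344). It had entered the test only through arrays of days 6, 8 and 16, so this call is not independent of the filter. With no filter the call was kept. That call was lost without any 1 of 5 arrays of those days, with replicate 1 of day 4 the exception, with an adjusted p of up to 0.113. Without replicate 3 of day 4 the difference was 2.37 (adjusted p = 0.0577). The call was also lost with the replicate number of the scan record as a block (0.0767). On day 16 the 3 arrays covered nearly the whole range seen in the course.

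Cd34, a sialomucin on vessel and blood progenitor surfaces, read 7.66, 6.71 and 8.18 on day 4, 8.57, 9.02 and 8.00 on day 5, 9.79, 9.89 and 7.13 on day 6, 10.12, 10.01 and 9.32 on day 8 and 10.21, 10.30 and 9.33 on day 16. It read 9.31, 8.73 and 8.48 on day 25 and 8.31, 8.52 and 6.15 on day 30. Days 8 and 16 lay above every array of days 4, 5 and 30, and in replicate 3 of day 6 the gene was low, as Pecam1, Tek and Esam were on the same array. Cd34 was at least 4.67-fold higher on day 8 than on day 4 (2.30, SE 0.66, adjusted p = 0.0203, lost without replicate 2 of day 4 or replicate 1 or 2 of day 8, at 0.0939 at most) and at least 5.1-fold above day 4 on day 16 (2.43, adjusted p = 0.00917, kept without each array). Cd34 had entered the test through no array of day 4, so both calls are not independent of the filter, but with no filter they were kept. Without replicate 3 of day 6, Cd34 was also called on day 6, at 2.32 (adjusted p = 0.0188), as was Pecam1 at 2.58 (0.0365), on the fitted scale.

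Counted over the 9 tested genes, 3 were higher and 0 lower on day 6 than on day 4 (Tek, Cdh5 and Esam), where 4.01% of all genes were called higher and 2.86% lower. On day 8 there were 5 higher and 0 lower, with Pecam1 and Cd34 added, against 10.2% higher and 6.36% lower among all genes. Of these, Pecam1 had entered the test only through arrays of days 6, 8 and 16, and Tek and Cd34 through no array of day 4. The calls of these genes are not independent of the filter, though with no filter they were kept. Day 16 had 3 higher (Esam, Eng and Cd34) and 0 lower, against 15.1% and 11.3%. Without replicate 3 of day 4, Kdr and Aplnr were called lower on day 16, so the count of 0 rests on that array. On day 25 there were 3 higher (Flt1, Cdh5 and Esam) and 2 lower (Kdr and Aplnr), against 14.5% and 13.1%. On day 30 there were 4 higher, with Tek added, and 2 lower, again Kdr and Aplnr, against 15.5% and 13.8%. The calls of Kdr and Aplnr on day 25 were kept in only 2 and 4 of the 21 fits with 1 array left out, with Kdr at 0.0528 without replicate 3 of day 5 and 0.0531 without replicate 3 of day 6, and Aplnr at 0.0513 without replicate 3 of day 6. These comparisons share the arrays of day 4. The median differences of the 9 genes from day 4 were 1.42 on day 6, 1.37 on day 8, 0.55 on day 16, 0.86 on day 25 and 0.61 on day 30, beside 0.06, 0.04, 0.03, 0.04 and -0.02 over all genes. Between day 5 and day 4, 0 of the 9 were called, against 0% of all genes. The difference of Aplnr between these days was 2.22, and 0 without replicate 3 of day 4.

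Between neighbouring later days few genes of the chip were called. Day 16 with day 8 gave 0 higher and 2 lower, Kdr and Tek, where 2.71% of all genes were called higher and 0.743% lower. Day 16 with day 6, within the same scan batch, gave 1 higher, Eng, and 3 lower, Kdr, Tek and Aplnr, against 7.61% and 4.9%. Day 25 with day 8, which crosses a scan batch, gave 1 higher, Flt1, and 3 lower, Kdr, Tek and Aplnr, against 6.24% and 5.89%. Of these the call of Tek (3.08-fold, adjusted p = 0.0305) was lost without replicate 1 or 3 of day 8 or of day 25, at 0.148 at most. Day 6 with day 5 gave 0 of 9 (0.0991% of all genes), day 8 with day 6 gave 0 (0.139%), day 25 with day 16 gave 0 (0.535%) and day 30 with day 25 gave 0 (0%). Without replicate 3 of day 6, Tek (2.25, adjusted p = 0.0351) and Cdh5 (1.34, adjusted p = 0.0385) were called between day 6 and day 5, and Cdh5 was also lower on day 16 than on day 6 (-0.99, adjusted p = 0.0428).

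**Figure D3:**
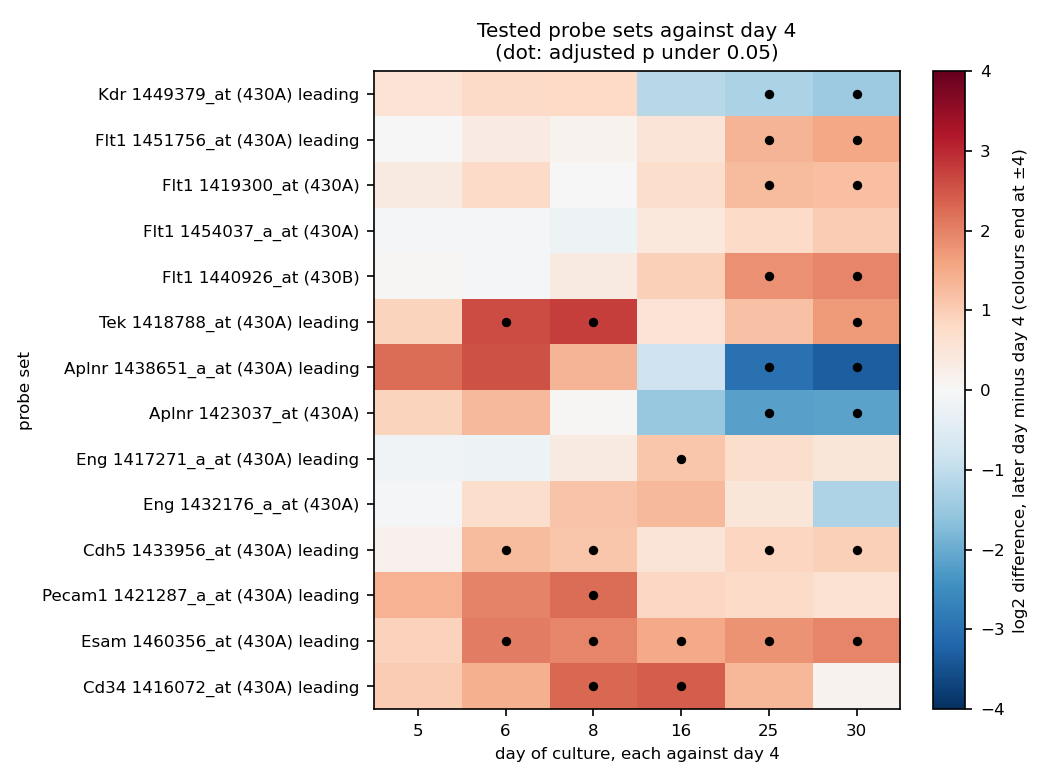
Log2 difference from day 4 of the 14 tested probe sets (rows) on each later day (columns), with a dot where the adjusted p was under 0.05. Esam is called on all 5 days from day 6, Tek, Cdh5, Pecam1 and Cd34 are higher on day 8, and on days 25 and 30 Flt1 is higher while Kdr and Aplnr are lower.

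**Figure D4:**
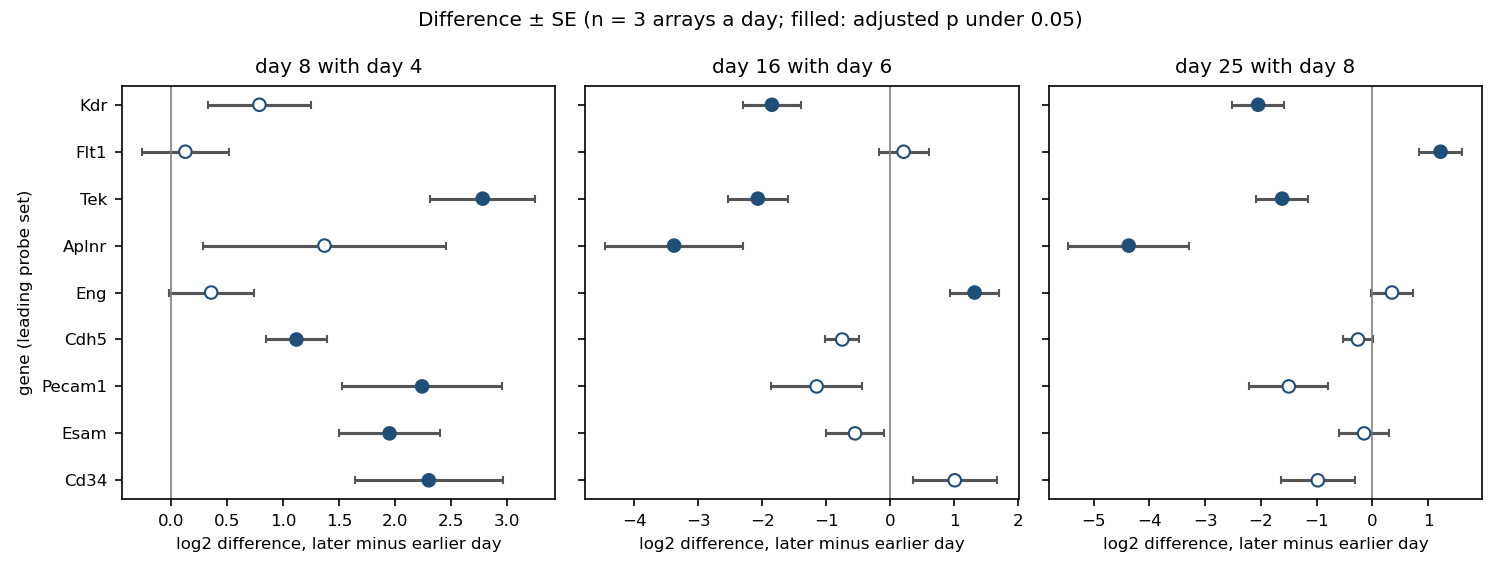
Log2 differences with SE (horizontal axes, later minus earlier day, n = 3 arrays a day) of the 9 tested genes for day 8 with day 4, day 16 with day 6 and day 25 with day 8; filled points have an adjusted p under 0.05. Tek is up by day 8 and down by day 16, Kdr and Aplnr are down in the panels of days 16 and 25, and Flt1 is up on day 25.

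The ligands of these receptors moved in both directions. Of 15 measured, 4 were higher and 2 lower on day 8 than on day 4, with a median of 0.76, and 3 were higher and 3 lower on day 30, with a median of -0.23. Among all genes 10.2% were higher and 6.36% lower on day 8, and 15.5% were higher and 13.8% lower on day 30, and the counts of the lists below are set beside these shares. The ligand counts of day 30 lay near them. Vegfa, the ligand of both VEGF receptors, rose at least 5.26-fold by day 8 (adjusted p = 0.00272) and at least 9.81-fold by day 30 (7.04e-05). Pgf, which binds the Flt1 product and not that of Kdr, was higher on day 30 than on day 4 by at least 11-fold (4.82, SE 0.83, adjusted p = 1.97e-04). Vegfb, another ligand of the Flt1 product, fell at least 15.8-fold by day 30 (3.74e-06). Apln, the apelin gene, which lies outside the rule for named genes, differed from day 4 by -0.37 on day 8 and 0.11 on day 30, neither of them called.

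Of 13 co-receptors and related receptors, 4 were higher and 0 lower on day 8 and again 4 and 0 on day 30. Nrp1, the neuropilin that binds VEGF beside the Kdr product, was 6.37-fold higher on day 8 (adjusted p = 0.0106, but 0.0562 without replicate 3 of day 4) and at -0.50 on day 30, not called. Cd93, a lectin-like protein of endothelium and myeloid cells, rose at least 8.91-fold by day 8 (0.0483), a call lost in 14 of the 21 fits with 1 array left out. Thbd, the thrombomodulin gene, rose at least 20.6-fold by day 30 (4.38e-04), and Tgfbr2, a receptor of the complexes that the Eng product joins, rose 9.78-fold (2.92e-07). Of 12 junction partners 2 were higher on day 8 and 4 higher and 2 lower on day 30. Cldn5, the claudin of endothelial tight junctions, was 3.23-fold higher on day 8 (0.0452, lost without any 1 of the 6 arrays of these days, among others) and at -1.15 on day 30, not called. F11r and Ocln, which epithelia use too, were 3.89-fold (4.03e-04) and 3.75-fold (0.0045) higher on day 30.

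Of 17 other products of endothelium, 11 were tested, with 2 higher on day 8 and 1 on day 30 than on day 4. Icam2 and Mcam, both adhesion molecules, were at least 6.37-fold (adjusted p = 0.00468) and at least 4.69-fold (0.00243) higher on day 8, and on day 30 Procr, the protein C receptor gene, was 9.45-fold higher (3.81e-07). Of 7 arterial and Notch genes, Efnb2 was 2.92-fold higher on day 8 (6.65e-04), while Hey1 (3.98-fold, 0.00484) and Notch1 (3.3-fold, 0.00179) were lower on day 30.

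Among 17 transcription factors of endothelium and blood, 4 were higher and 1 lower on day 8, and 6 were higher and 1 lower on day 30. Those that rose by day 8 were Mef2c (at least 17.7-fold, adjusted p = 0.00211), Ets1 (at least 14.9-fold, 4.06e-04), Nr2f2 (at least 12.1-fold, 0.0022) and Sox18 (at least 5.05-fold, 0.0156). The 1 that fell was Etv2, which starts the endothelial and blood programme in mesoderm, at 2.02-fold lower on day 8 (0.0274) and 2.94-fold lower on day 30 (7.04e-04). Etv2 and Sox18 lie outside the rule for named genes and were chosen after their values were seen. On day 30 Sox7 was 19-fold higher (2.15e-05) and Sox17 10.1-fold (0.00175), 2 factors known from both endothelium and primitive endoderm, while Sox18 was at -1.41 and not called.

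Markers of other cells moved over the same days. Of 8 visceral and parietal endoderm genes, 7 were higher and 0 lower on day 30 than on day 4 (median 2.57), among them Lama1, 79.7-fold higher (adjusted p = 2.78e-06), and the mean of the list was 13.05 to 13.13 on day 30, against 8.48 to 10.72 on day 4. Of 12 blood genes, 5 were higher and 0 lower on day 8 than on day 4 (median 1.28), with the embryonic globin gene Hba-x 33.1-fold higher (0.00885, but 0.0557 without replicate 3 of day 8), and between day 16 and day 6, 0 were higher and 3 lower, beside 7.61% and 4.9% of all genes. The mean of the blood list was 9.98 to 10.98 on day 8, against 7.68 to 8.85 on day 4. Of 7 macrophage genes 4 were higher on day 8 and 3 on day 30, and of 9 mural and fibroblast genes 5 were higher and 1 lower on day 8 and 2 higher on day 30. Of 8 pluripotency genes 5 were lower on day 8 and 7 on day 30, and of 8 streak and early mesoderm genes 1 was higher and 2 were lower on day 8 and 1 was higher and 3 were lower on day 30. The part of any of these cells in the changes of the 9 genes was not tested.

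**Figure D5:**
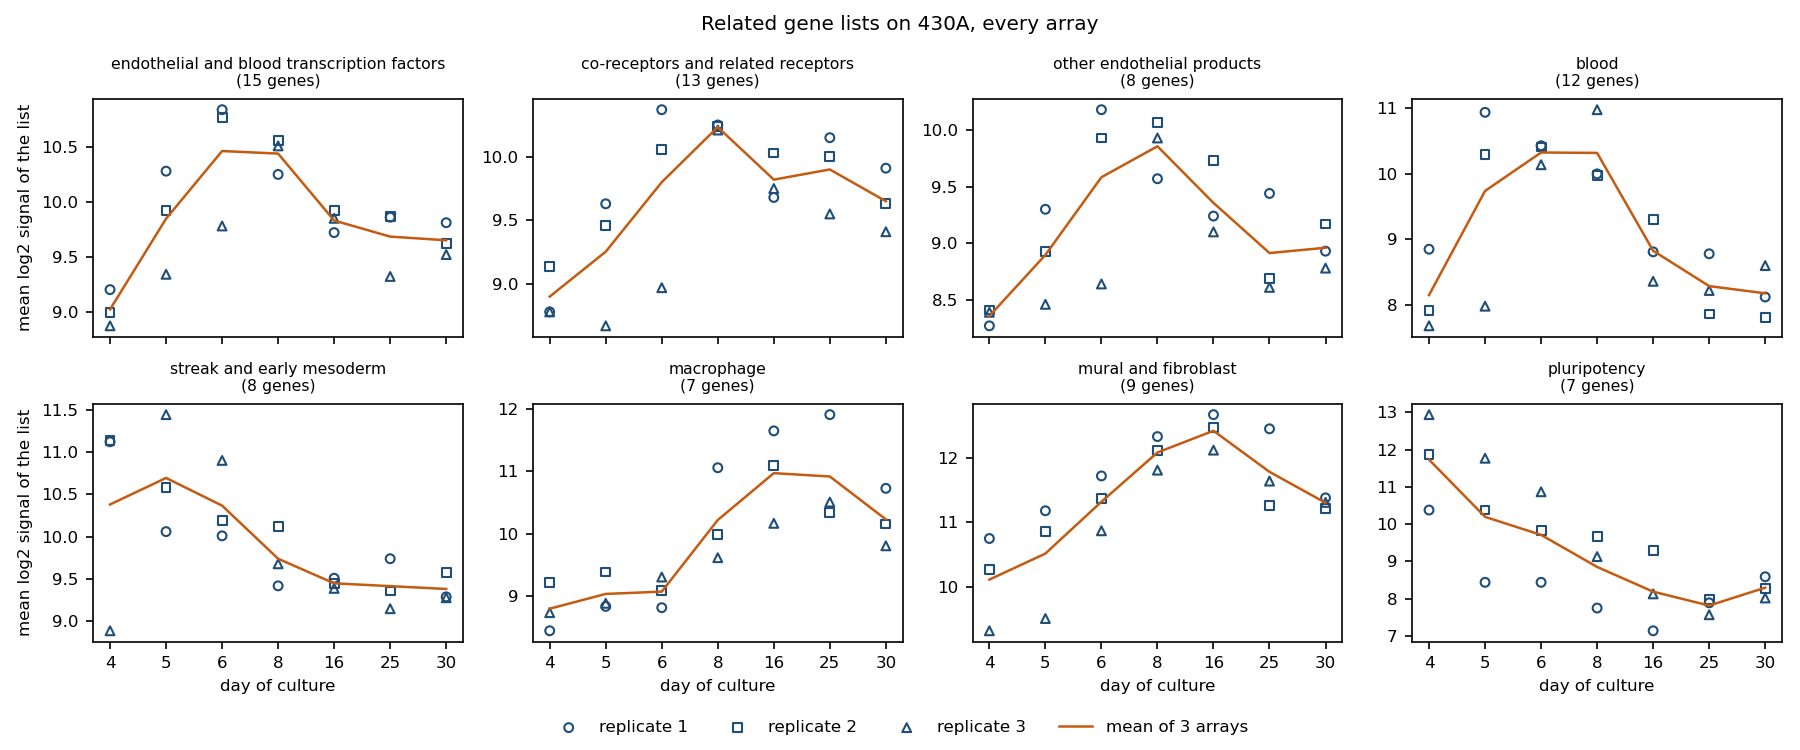
Mean log2 signal of 8 gene lists on every 430A array (vertical axes, each panel with its own scale) by day of culture, with the mean of the 3 arrays in orange. The lists of transcription factors, other endothelial products and blood genes are highest on days 6 and 8. The co-receptor list is highest on day 8 and the macrophage and mural lists later. The pluripotency list is highest on day 4, where replicate 3 stands above the others.

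Across the 21 arrays the 9 genes fell into different company, given here as a description with no test, since the arrays share days and scan batches. Kdr and Aplnr ran together at r = 0.94, and at 0.91 after each day's mean was taken off. Without replicate 3 of day 4 these values were 0.93 and 0.57. Tek, Cdh5 and Esam ran together at r = 0.73 to 0.86, whereas Kdr had r = 0.15 with Cdh5, 0.02 with Esam and -0.46 with Flt1. Of all 10091 other genes, those most like Kdr were Aplnr, the ephrin gene Efnb3 (0.919) and Asb4 (0.914), a ubiquitin ligase component. Those most like Aplnr were Hmga2 (0.947), a chromatin protein gene, Kdr and Asb4 (0.908). For Tek they were Ints14 (0.848), Cdh5 (0.829) and the ryanodine receptor gene Ryr2 (0.799), and for Cdh5 they were Esam (0.861), Tek and Ryr2 (0.818). Those most like Flt1 were Sox17 (0.869), Tmem37 (0.868) and Tuft1 (0.863), with Sox17 also a member of the endoderm list above. For Esam they were Sri (0.872), Fhl2 (0.862) and Cdh5, and for Cd34 Dlk1 (0.837), Rasa3 (0.833) and Mmp9 (0.83). After each day's mean was taken off, all these values were lower, from 0.413 for Tek with Ints14 to 0.91 for Kdr with Aplnr. Tek with Cdh5 then stood at 0.547 and Cdh5 with Esam at 0.707. For pairs other than Kdr with Aplnr, the part of replicate 3 of day 4 was not tested.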

How the data were processed

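The authors deposited a signal made with MAS5, as the submitters' processing notes name it, and its version is not given in the sources used here. Per the deposited values themselves, the authors had scaled the signal so that each array's mean without its highest and lowest 2% was 1501 on 430A and 1500 on 430B. The signal was taken to log2 with no offset. The 64 control probe sets of each chip were left out. Probe sets with 3 or more of 21 values over the 40th percentile of the array were tested, 16705 on 430A and 18260 on 430B. The 2 chips had separate fits, made with limma 3.58.1 in R 4.3.3, with the day as the only factor over 21 arrays (14 residual degrees of freedom) and eBayes with a trend, in an F test and 13 two-sided contrasts, and the code was tested on simulated data. Benjamini-Hochberg adjustment ran over all tested probe sets of a chip, with a threshold of 0.05. Where a value of the lower day lay under the chip's 20th percentile (6.95 on 430A, 7.67 on 430B), it was raised to it and the fold is written "at least", while the difference, SE and adjusted p are those of the fit.

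Gene symbols are those of the platform annotation. The members, the comparisons and the lists of related genes, written from general knowledge, were chosen with earlier results of these data known. Of each list the text names up to 4 genes with the largest called change in day 8 or day 30 with day 4, and for each gene past the F test the 3 most correlated other genes. Apln, Etv2 and Sox18 are named outside this rule. Alternatives were other scalings, offsets, filters, variance models and blocks, and leaving out each array. Arrays carry no read depth, and their number limits the precision.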

Additional observations from a re-analysis of the deposited data

How the results depend on the processing

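No difference of the 9 genes turned its sign past the threshold under the alternatives run. Of 126 results (14 tests of 9 genes), 125 kept their side of the threshold under quantile normalization, 122 under median centring, 126 and 125 with 16 or 64 added to the signal, 121 with no filter, 121 with eBayes without a trend, 125 with the scan batch as a random block and 45 of the 45 that could be fitted with it as a fixed block. The fixed block could be fitted only for comparisons whose days share a scan batch. It therefore could not check any comparison of day 6 or later with day 4, nor day 25 with day 8. The random block had a consensus correlation of -0.026 on 430A, so that fit lay close to the main one. With no filter, 3 genes were called on day 25 against day 4 in place of 5, and likewise 3 with eBayes without a trend, where 1 in place of 2 was called on day 16 against day 8. In the labels, replicates of a day share only a number with those of other days. Same-numbered arrays deviated together at a median r of 0.033 (-0.1 to 0.355) on 430A, against -0.025 (-0.304 to 0.158) for other numbers. On 430A 16 of 21 arrays correlated best with their own number, and on 430B 13 of 21. What same-numbered arrays share was not tested. With the replicate number as a block all 126 results were kept, for example 7 genes in the F test. The scan record numbers the third array of days 8 and 16 otherwise than its title, and with that number as a block, an alternative chosen after seeing the data, 2 genes in place of 4 were called on day 25 against day 8, Flt1 (0.0606) and Tek (0.0933) being lost, and Kdr was called lower on day 16 than on day 4 (-1.31, adjusted p = 0.0358). Without single arrays the calls ranged from 6 to 8 genes in the F test, 1 to 5 on day 6, 3 to 6 on day 8, 1 to 4 on day 16, 2 to 4 on day 25 and 4 to 6 on day 30 against day 4, 0 to 2 on day 6 against day 5, 0 to 3 on day 16 against day 8, 0 to 1 on day 25 against day 16, and 1 to 4 on day 16 against day 6 and on day 25 against day 8. Among the counts moved by over 1.5 times were 5 on day 6 against day 4 without replicate 1 of day 4 or replicate 3 of day 6 and 1 without replicate 1 or 2 of day 6, 3 on day 8 without replicate 2 of day 4 or replicate 1 or 2 of day 8, 1 on day 16 without its replicate 2, 2 on day 25 without its replicate 3, 0 on day 16 against day 8 without replicate 3 of day 8 or replicate 1 of day 16, 1 on day 16 against day 6 without replicate 1 of either day, and 1 on day 25 against day 8 without replicate 3 of either day. For day 5 against day 4, day 8 against day 6 and day 30 against day 25 the count was 0 throughout. The filter at the 60th percentile dropped Pecam1. The cause of each change was not tested. Signal near background limits Tie1 wholly, Pecam1 on days 4, 16, 25 and 30, Cd34 on days 4 and 30 and the second Eng probe set on day 30.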
